A study of Mus musculus with 4 samples.

Results

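The Myc family and the Max network are described here in RNA-seq of wild-type (WT) and Npac knockout (KO) mouse embryonic stem cells (mESCs). The 10 genes were chosen by name, as Myc, Mycn, Mycl, Max, Mxd1, Mxi1, Mxd3, Mxd4, Mnt and Mga, out of 56748 genes in the deposited tables. All 10 were found under these names, and all 10 had enough reads to be tested. The rule used names only, although the group was picked with earlier results of these data known. The cells were of the E14 line, a mouse ES cell line, grown without feeder cells in medium with serum and leukemia inhibitory factor. There were 2 libraries of WT cells (WT1 and WT2) and 2 libraries of Npac KO cells (KO1 and KO2), all from the same cell line and without a further treatment. The KO cells came from CRISPR/Cas9 targeting of exon 3 of Npac followed by puromycin selection and picking of colonies, so that each KO line is a clone. No source used here states that the WT libraries came from separate cultures, so the p-values measure only the spread between these libraries, part of which may be technical.

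MYC proteins are basic helix-loop-helix leucine zipper transcription factors that bind the E-box CACGTG as heterodimers with MAX and raise transcription of genes for ribosome production, metabolism and cell division. MXD proteins, MNT and MGA compete for MAX and bind the same sites. MXD proteins and MNT recruit the SIN3 corepressor with its histone deacetylases, whereas MGA, which also has a T-box DNA-binding domain, belongs to a noncanonical Polycomb complex called PRC1.6. In mESCs, MYC and MYCN are known to sustain self-renewal and growth, and MAX, MGA and PRC1.6 to repress germ cell genes.

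The total count lay between 15850805 and 16965120 reads per library. Npac, listed in the files as Glyr1, was read 3961 and 3115 times in WT cells against 744 and 888 times in KO cells, or 22.7% of the WT level after normalization. All 8 ES cell markers examined were read in every library, with a summed level of 4632 to 7054 CPM (reads scaled to a common library size, normalized by the TMM method). The summed levels of markers of fibroblasts, primitive endoderm, neural cells and mesoderm lay between 12.2 and 92.3 CPM. The fibroblast marker Col3a1 had no reads in any library. Col1a1, a fibroblast marker on chromosome 11, had 85 and 168 reads in WT cells and 285 and 326 in KO cells. It rose by edgeR (log2 fold change 1.29, adjusted p = 0.0308). Of 3 fibroblast markers tested, 1 passed the thresholds as higher (33.3%) and 2 were not called. These were Col1a2 (2.06, adjusted p = 0.0515) and Thy1, the fibroblast marker with the most reads (-0.49, adjusted p = 0.231). The summed level of the fibroblast markers overlapped between genotypes. It was 35.75 and 59.24 CPM in WT1 and WT2 and 45.04 and 50.96 CPM in KO1 and KO2. Of 6 neural markers tested, 2 passed the thresholds as higher (33.3%) and 1 as lower (16.7%), where 11% and 10.7% of all genes tested did. Of 5 primitive endoderm markers tested, 1 passed as lower (20%). Of the ES cell markers, Zfp42 fell (log2 fold change -2.64, adjusted p = 0.000704) and the other 7 did not pass the thresholds. In bulk RNA, fewer cells of a type and less RNA per cell cannot be told apart. Genes on chromosomes 8 and 11 were higher as a group in both KO libraries, by a median log2 difference from WT of 0.48 to 0.52. Their part in the results was measured by removing the median of each chromosome from the KO libraries. No value after this removal is given here for Col1a1.

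A gene was called when the quasi-likelihood test of edgeR gave a Benjamini-Hochberg adjusted p under 0.05 and its fold change was over 1.5. Mycn and Mxi1 rose in Npac KO cells, Mxd1 fell, and the other 7 members did not pass both thresholds. Thus 2 of 10 members were called higher, where 11% of the 18157 genes tested were, and 1 of 10 was called lower, where 10.7% were. The median log2 fold change of the members was -0.0316, and that of all genes tested was 0.0015. The 3 calls in either direction stand beside 21.7% of all genes tested. The KO libraries lay above the WT libraries in 3 members and below them in 3, where 33.2% and 32.5% of all genes tested did so (65.7% in either direction), so these shares alone do not set the members apart. The background moved with the settings. It was 11.1% higher and 11.4% lower by DESeq2, 17.2% and 16.5% with a replicate block, and 9.33% and 9.81% with the chromosome medians removed, and in each of these 2 members were higher and 1 was lower. On log2 FPKM it was 10.5% and 9.56% with a pseudocount of 0.1 and 9.87% and 8.78% with a pseudocount of 1, with 1 member higher and 1 lower in both. It was 14.8% and 15.4% without WT1 (3 members higher and 1 lower), 19.1% and 18.2% without WT2 (2 and 1), 3.54% and 3.34% without KO1 (0 and 0) and 3.7% and 3.75% without KO2 (1 and 0).

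Sequences are shown first for the 2 members with the greatest rise and fall. The 250 bases before the annotated start of Mycn and of Mxd1 were read from RefSeq promoters (build GRCm38.p6), which held entries for 9 of the 10 members, in 11 windows. Myc had no entry. In Mycn the capitals mark TTTGGCGC, a motif of the type bound by E2F factors, and in Mxd1 they mark CCAAT, the box bound by NF-Y, each searched on both strands. These motifs were picked after the sequences had been read.
Mycn, chr12:12941837-12942086, minus strand: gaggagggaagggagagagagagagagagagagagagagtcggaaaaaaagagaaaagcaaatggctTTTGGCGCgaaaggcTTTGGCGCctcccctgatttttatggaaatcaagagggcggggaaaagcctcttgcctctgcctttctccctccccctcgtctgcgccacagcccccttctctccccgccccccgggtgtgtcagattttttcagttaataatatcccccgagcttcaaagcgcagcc
Mxd1, chr6:86669160-86669409, minus strand: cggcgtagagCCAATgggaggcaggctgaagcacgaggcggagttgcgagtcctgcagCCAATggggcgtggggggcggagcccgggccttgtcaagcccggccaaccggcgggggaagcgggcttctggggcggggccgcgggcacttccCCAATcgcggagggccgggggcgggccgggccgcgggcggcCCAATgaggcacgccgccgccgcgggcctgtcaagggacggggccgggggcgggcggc
The Mycn window held 2 copies of TTTGGCGC, and 0.514% of all 32851 promoter windows of 300 bases held at least 1. The Mxd1 window held 4 copies of CCAAT, and 37.4% of all windows held at least 1. The share of windows with 4 copies was not computed. The Mxd4 window held 2 copies of CCAAT as well, and Mxd4 was not called. None of the other members' windows held TTTGGCGC.

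The E-box CACGTG, to which the network's own dimers bind, was found in the windows of 3 members, which are Max, Mxd4 and Mnt, and in 7.15% of all windows. The 30 bases around each are shown with the E-box in capitals (GRCm38.p6).
Max, chr12:76962234-76962263, minus strand: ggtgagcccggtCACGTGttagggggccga
Mxd4, chr5:34187912-34187941, minus strand: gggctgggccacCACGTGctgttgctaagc
Mnt, chr11:74830789-74830818, plus strand: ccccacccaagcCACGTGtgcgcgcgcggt
None of the 3 genes called held this sequence in its windows, and none of the 3 genes that held it was called. These are too few genes to compare, and the share of called genes with the sequence among all genes was not computed. The half-site TCACACCT of T-box factors, searched because MGA carries a T-box, was in none of the members' windows and in 1.28% of all windows. A match describes these letters in this window only.

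Of the MYC genes, Mycn rose. Mycn (ENSMUSG00000037169), which encodes N-MYC, lies on chromosome 12 from 12986094 to 12991915 in the files' coordinates. Its reads numbered 625 and 646 in WT1 and WT2 and 1902 and 1463 in KO1 and KO2, which are 40.9, 37.0, 122 and 84.5 CPM. Both KO libraries were far above both WT libraries, and KO1 was above KO2. The WT mean was 38.9 ± 2.79 CPM and the KO mean 103 ± 26.8 CPM (SD, n = 2 each), a 2.66-fold difference. The log2 fold change was 1.41 (standard error 0.23, 95% interval 0.88 to 1.94, adjusted p = 0.00697). Taken line by line, the log2 difference from the WT mean was 1.65 in KO1 and 1.12 in KO2. Without KO1 the log2 fold change was 1.10 with an adjusted p of 0.0602, so the call was lost, and with any other library left out Mycn was still called.

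Myc (ENSMUSG00000022346, chromosome 15 from 61857240 to 61862223), which encodes c-MYC, was the MYC gene with the fewest reads. WT1 and WT2 gave 128 and 126 reads, and KO1 and KO2 gave 86 and 62, or 8.38, 7.21, 5.53 and 3.58 CPM. Each KO line was lower than each WT library, but the spread left the difference short of the threshold, at a log2 fold change of -0.78 (standard error 0.38, 95% interval -1.65 to 0.10, adjusted p = 0.177). The KO lines differed from each other by 0.61 on the log2 scale, a gap that 15.6% of all genes tested reached. Mycl (ENSMUSG00000028654, chromosome 4), which encodes L-MYC, had 29.9, 29.1, 39.1 and 33.2 CPM in WT1, WT2, KO1 and KO2. The KO libraries were slightly above the WT libraries, and the log2 fold change was 0.29 (standard error 0.20, 95% interval -0.18 to 0.76, adjusted p = 0.334). The interval leaves room for a rise of over 1.5-fold. The MYC genes therefore did not share a direction that passed the test.

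**Figure D1:**
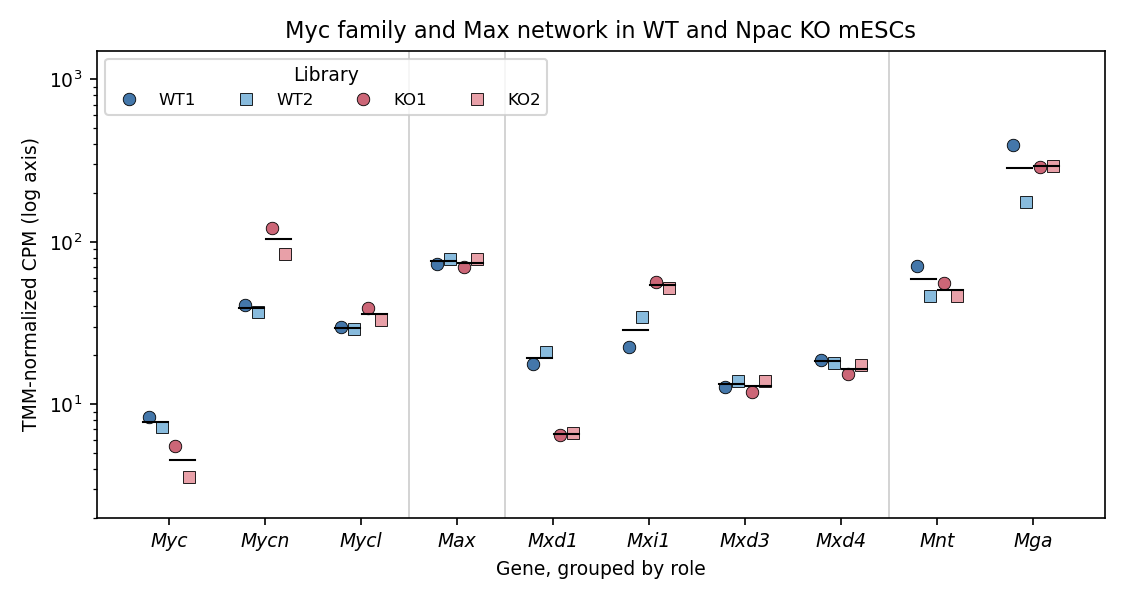
TMM-normalized CPM (log axis) of the 10 genes in each library, with circles for replicate 1, squares for replicate 2 and a bar at the mean of each genotype. The KO libraries of Mycn (84.5 and 122 CPM) and Mxi1 (51.7 and 56.5 CPM) lie above their WT libraries, those of Mxd1 (6.43 and 6.64 CPM) lie below, and the WT libraries of Mga are far apart.

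Max (ENSMUSG00000059436, chromosome 12), the partner that the other members need to bind DNA, was steady. WT1 and WT2 stood at 73.3 and 78.2 CPM, and KO1 and KO2 at 70.3 and 78.8 CPM. The genotypes overlapped, and the log2 fold change was -0.0235 (standard error 0.18, 95% interval -0.44 to 0.39, adjusted p = 0.941), an interval that excludes a change of 1.5-fold in either direction at this level of confidence.

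The MXD genes, which encode the repressors that pair with MAX, moved apart. Mxd1 (ENSMUSG00000001156, chromosome 6 from 86624024 to 86646143), which encodes MAD1, fell to 33.8% of the WT mean. WT1 and WT2 held 272 and 364 reads, KO1 and KO2 held 100 and 115, or 17.8, 20.8, 6.43 and 6.64 CPM. Every KO library was well below every WT library, and the 2 KO lines were close to each other. The WT mean was 19.3 ± 2.14 CPM and the KO mean 6.54 ± 0.149 CPM (SD, n = 2 each), at a log2 fold change of -1.56 (standard error 0.28, 95% interval -2.20 to -0.92, adjusted p = 0.00921). Leaving out KO1 or KO2 changed the log2 fold change only to -1.56 and -1.59, but the adjusted p rose to 0.0757 and 0.0684 when a single KO library was left.

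Mxi1 (ENSMUSG00000025025, chromosome 19 from 53298949 to 53364241), which encodes the related repressor MXI1, rose 1.89-fold. There were 346 and 606 reads in WT1 and WT2 and 878 and 894 in KO1 and KO2, which are 22.7, 34.7, 56.5 and 51.7 CPM. The KO libraries were above the WT libraries, and the WT libraries differed by 1.53-fold. The log2 fold change was 0.91 (standard error 0.24, 95% interval 0.35 to 1.48, adjusted p = 0.0355). This was the weakest of the 3 calls. It was lost without KO1 (0.83, adjusted p = 0.222), without KO2 (0.98, adjusted p = 0.145) and on the FPKM values, where the adjusted p was 0.0585 with a pseudocount of 0.1 and 0.0628 with a pseudocount of 1. RefSeq gives Mxi1 3 promoter windows, and the counts per gene do not separate the transcripts that start there.

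Mxd3 (ENSMUSG00000021485, chromosome 13) and Mxd4 (ENSMUSG00000037235, chromosome 5) encode the remaining MXD proteins. Mxd3, which is known from dividing cells, had 12.8, 13.9, 11.97 and 13.98 CPM in WT1, WT2, KO1 and KO2. The genotypes overlapped, with a log2 fold change of -0.0397 (95% interval -0.66 to 0.58, adjusted p = 0.933). Mxd4 had 18.7, 18.0, 15.4 and 17.4 CPM in the same order, and its log2 fold change was -0.16 (95% interval -0.72 to 0.39, adjusted p = 0.660). Its KO libraries were below its WT libraries by a small margin. Mxd3 overlaps the gene Prelid1 on the other strand by 105 bases, and Prelid1 had 2459 to 3014 reads per library against 186 to 243 for Mxd3; the strand setting of the counting is not given in the sources used here, so reads from the shared bases cannot be assigned with certainty.

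MNT and MGA encode the large members of the network, and neither gene passed the thresholds. Mnt (ENSMUSG00000000282), on chromosome 11, stood at 71.1 and 46.5 CPM in WT1 and WT2 and at 55.4 and 46.3 CPM in KO1 and KO2. The genotypes overlapped, and the log2 fold change was -0.21 (standard error 0.24, 95% interval -0.78 to 0.36, adjusted p = 0.572). Mnt did not share the higher level of its chromosome, where 26.7% of 1455 genes tested were called higher and 3.99% lower. After the chromosome median was removed its log2 fold change was -0.71 (adjusted p = 0.0815), past the fold threshold but not the p threshold.

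Mga (ENSMUSG00000033943, chromosome 2) had the most reads of the network, with 5991 and 3087 in WT1 and WT2 and 4514 and 5053 in KO1 and KO2, or 392, 177, 290 and 292 CPM. Both KO libraries lay between the WT libraries. The WT libraries differed by 2.22-fold, a gap that 10.9% of all genes tested reached, whereas the KO libraries were nearly equal. The log2 fold change was 0.0339 (standard error 0.34, 95% interval -0.75 to 0.81, adjusted p = 0.956). Against WT2 alone Mga was called higher (0.69, adjusted p = 0.0083), and against WT1 alone it was lower without passing the threshold (-0.43, adjusted p = 0.0755), so the direction for Mga depends on the WT library.

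**Figure D2:**
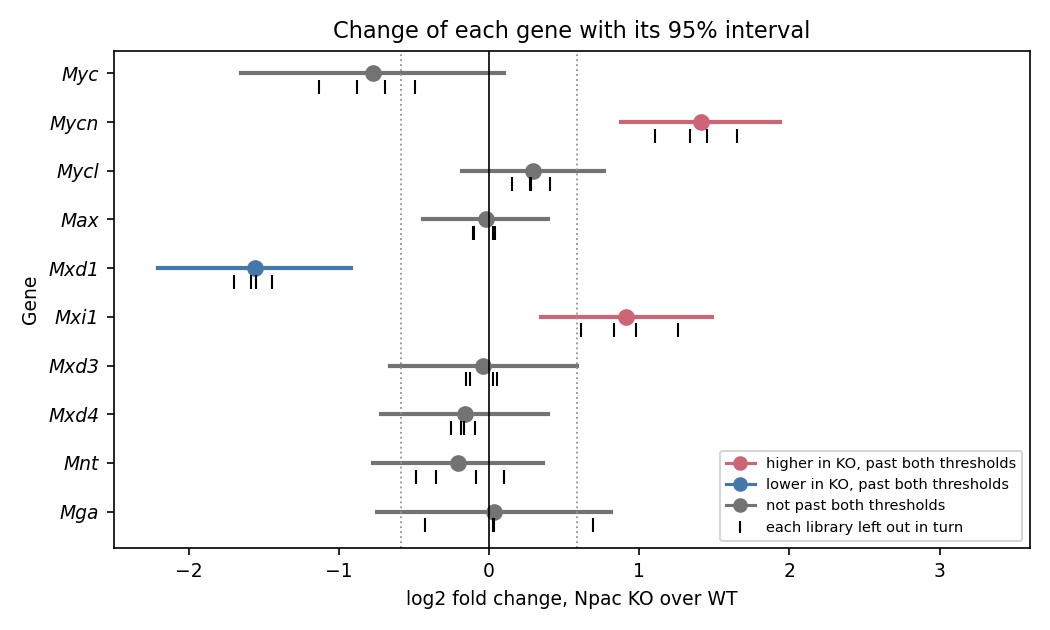
Log2 fold change of Npac KO over WT for each gene (dot) with its 95% interval (line), and ticks below for the value with each library left out in turn. Dotted lines mark a fold change of 1.5, and the intervals of Mycn (0.88 to 1.94) and Mxd1 (-2.20 to -0.92) lie wholly beyond them, while the ticks of Mga spread from -0.43 to 0.69.

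Levels were compared between genes only per length, as FPKM. In WT cells Max was highest at 20.9 ± 0.919 FPKM (SD, n = 2), followed by Mga at 18.4 ± 9.89, Mnt at 12.6 ± 3.74 and Mycn at 11.7 ± 0.856, and among these 4 each neighbour overlapped the next in its libraries. Mycl followed at 7.26 ± 0.147 FPKM, Mxd3 at 5.59 ± 0.331 and Mxi1 at 4.17 ± 1.23, without overlap between neighbours. Myc at 2.85 ± 0.306 FPKM and Mxd1 at 2.71 ± 0.297 overlapped, and Mxd4 was lowest at 2.15 ± 0.055. In Npac KO cells Mycn was highest at 31.1 ± 8.35 FPKM, above Max at 20.5 ± 1.45 and Mga at 18.8 ± 0.121, with no overlap between these neighbours. Mnt at 10.9 ± 1.48 came next, and Mycl at 8.86 ± 1.12 and Mxi1 at 7.84 ± 0.575 overlapped. Mxd3 had 5.41 ± 0.540 FPKM, Mxd4 at 1.91 ± 0.147 and Myc at 1.66 ± 0.519 overlapped, and Mxd1 was lowest at 0.915 ± 0.0115.

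The summed FPKM of the MYC genes was 22.8 and 20.9 in WT1 and WT2 and 48.7 and 34.6 in KO1 and KO2. Both KO sums were above both WT sums. Mycn made up 54.2% and 53.2% of the sum in WT1 and WT2 and 76.0% and 72.9% in KO1 and KO2. The sum over the MXD genes, Mnt and Mga was 54.0 and 37.3 in WT1 and WT2 and 46.8 and 44.7 in KO1 and KO2. Here the KO libraries lay within the range of the WT libraries, and the fall of Mxd1, 1 of the lowest members, was small beside the spread of Mga. The ratio of the MYC sum to the sum of the MXD genes, Mnt and Mga was 0.421 and 0.561 in WT1 and WT2 and 1.04 and 0.773 in KO1 and KO2. These sums are descriptions, since an exact test of 2 against 2 libraries cannot reach 0.05, and mRNA levels do not give protein levels.

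**Figure D3:**
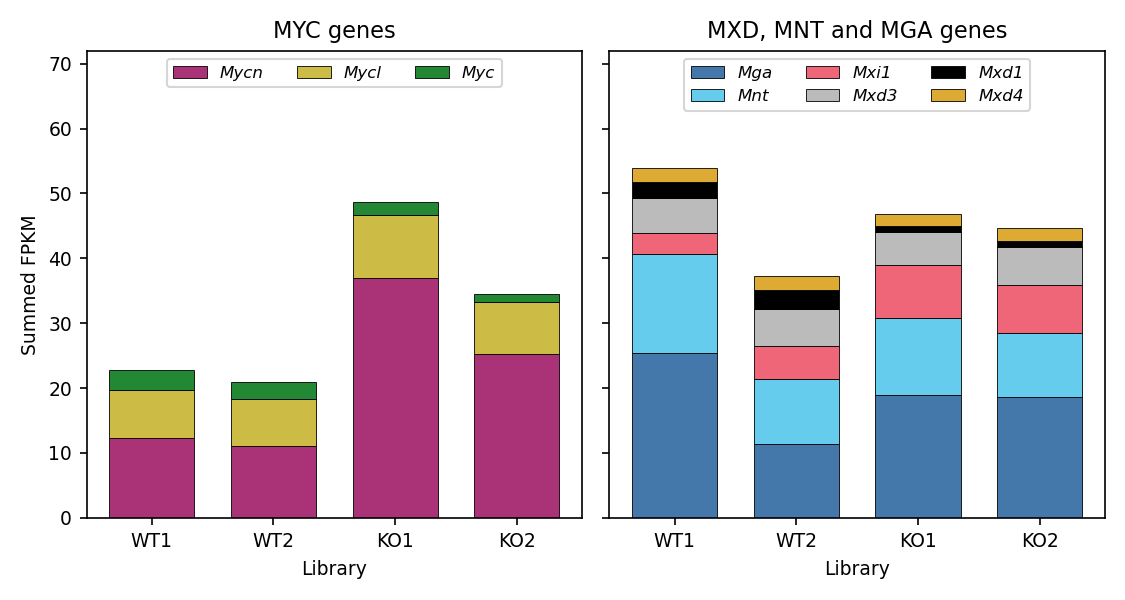
Summed FPKM per library, stacked by gene, for the MYC genes (left) and for the MXD genes, Mnt and Mga (right), each bar 1 library. The MYC sums are 22.8 and 20.9 in WT cells and 48.7 and 34.6 in KO cells, mostly through Mycn, whereas the sums on the right overlap between genotypes.

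The profiles over the 4 libraries were compared by the Euclidean distance between log2 CPM values centred on their mean. Among the members the closest pair was Max and Mxd3, at 0.0488. The values were not scaled, so genes that vary little lie close to each other. Max (log2 fold change -0.0235) and Mxd3 (-0.0397) both varied little. Outside the network, the tested genes closest to Mycn were Pdzd4 (0.060) and Ddx49 (0.0672), those closest to Myc were Gm10254 (0.0762) and Aopep (0.0796), and those closest to Mycl were Ddx18 (0.0232) and Gm16477 (0.0312). With 4 libraries and 18156 genes compared, these distances are a description and were not tested.

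Among the relatives and neighbours of the members, Mlx rose. MLX takes the place of MAX in a parallel network with MLXIP and MLXIPL, which respond to glucose. Mlx, on chromosome 11, went from 293 and 285 reads in WT cells to 765 and 830 in KO cells, at a log2 fold change of 1.45 (adjusted p = 0.00464), or 0.96 (adjusted p = 0.019) after its chromosome median was removed. Neither Mlxip (log2 fold change 0.46, adjusted p = 0.107) nor Mlxipl (0.34, adjusted p = 0.354) was called, and 0 of the 3 genes were lower by edgeR or DESeq2, also at an unadjusted p. Pvt1, the noncoding RNA gene next to Myc, had 207 and 278 reads in WT cells and 184 and 151 in KO cells, at a log2 fold change of -0.52 (adjusted p = 0.236). Bmyc, a short MYC relative, was at -0.41 on the log2 scale (adjusted p = 0.560), and the retrogene Mycs had 1 read in all 4 libraries together. Mycnos was not matched by name.

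Of 16 tested genes of the SIN3-HDAC corepressor, through which MXD proteins and MNT repress, 2 were higher (12.5%) and 0 were lower in Npac KO cells by edgeR, with a median log2 fold change of 0.20. DESeq2 gave the same counts. At an unadjusted p under 0.05 without a fold threshold there were 2 higher and 1 lower, and the share of all genes at that cut was not computed. The 12.5% is close to the 11% of all genes tested that were higher, and 10.7% of all genes tested were lower. The number higher was 1 without KO1, without KO2 and with the chromosome medians removed, and without WT2 there were 3 higher and 2 lower. Hdac1, a histone deacetylase, rose from 2657 and 2882 reads to 7726 and 7360 reads (log2 fold change 1.44, adjusted p = 0.00337). Its 3 matched processed pseudogenes together went from 1594 and 1566 reads to 499 and 494, and the log2 fold change of the sum was 0.88 (adjusted p = 0.0172). Sin3b, a scaffold of the complex, lies on chromosome 8 and rose by 0.81 on the log2 scale (adjusted p = 0.0236), and was at 0.30 (adjusted p = 0.303) after its chromosome median was removed.

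Of the 11 partners of MGA in PRC1.6, 1 was higher (9.09%) and 3 were lower (27.3%), beside 11% and 10.7% of all genes tested, and the median log2 fold change was -0.11. The number lower was 1 without WT1, 4 without WT2, 0 without KO1 and 0 without KO2, and on FPKM it was 1 with a pseudocount of 0.1 and 0 with a pseudocount of 1. The number higher was 2 without WT1 and 0 without KO1 or KO2. E2f6, which guides the complex to DNA, fell (-0.76, adjusted p = 0.0375), as did Tfdp2, a dimer partner of E2F proteins (-0.63, adjusted p = 0.0468), and Rnf2, the RING1B ubiquitin ligase (-0.59, adjusted p = 0.0495). Tfdp1, the other dimer partner, rose (0.83, adjusted p = 0.0152). None of these 4 calls remained after the chromosome medians were removed, where E2f6 was at -0.66 (adjusted p = 0.0587), Tfdp2 at -0.435 (adjusted p = 0.137), Rnf2 at -0.55 (adjusted p = 0.0677) and Tfdp1, which lies on chromosome 8, at 0.32 (adjusted p = 0.226).

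Of the 11 MYC cofactors, 2 were higher (18.2%) and 0 were lower by edgeR, beside 11% and 10.7% of all genes tested. DESeq2 gave 3 and 0, beside 11.1% and 11.4% of all genes tested. At an unadjusted p under 0.05 without a fold threshold there were 4 and 0, and the share of all genes at that cut was not computed. The number higher was 0 without KO1, 0 without KO2 and 1 with the chromosome medians removed, and 4 with the replicate block or without a filter on low counts. Without WT2 there were 3 higher and 1 lower. Kat2a, the histone acetyltransferase GCN5, rose by 1.01 on the log2 scale (adjusted p = 0.00903) and lies on chromosome 11, and it was at 0.52 (adjusted p = 0.0756) with the chromosome median removed. Actl6a, an actin-related subunit of chromatin complexes, rose by 0.92 (adjusted p = 0.0216). Of 15 genes for turnover of MYC proteins, 2 were higher and 0 were lower by edgeR and by DESeq2. Of all genes tested, 10.7% were lower by edgeR and 11.4% by DESeq2. There were 3 and 1 at an unadjusted p under 0.05 without a fold threshold, and the share of all genes at that cut was not computed. The 13.3% higher is near the 11% of all genes tested. The number higher fell without KO1 and without KO2, rose without WT1 and without WT2, and was 3 with the chromosome medians removed. There was 1 lower without WT1, without WT2, with the replicate block, without a filter on low counts and with the chromosome medians removed. Aurka, the kinase that protects N-MYC from degradation, rose from 1268 and 1386 reads to 2813 and 2553 reads (log2 fold change 1.02, adjusted p = 0.0104). Usp28, a deubiquitinase that acts on MYC, rose as well (0.76, adjusted p = 0.0193).

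Of 61 genes that MYC proteins are known to raise, 16 were higher (26.2%) and 2 were lower (3.28%) in Npac KO cells, and the median log2 fold change was 0.34. Among all genes tested, 11% were higher and 10.7% were lower. This list, like the others, was chosen with earlier results of these data known, which limits what its share can show. Of the 16, 5 lie on chromosomes 8 and 11, and with the chromosome medians removed 15 genes were higher and 1 was lower. These were not all the same genes. After that removal Npm1 (log2 fold change 0.68, adjusted p = 0.060) and Pes1 (0.57, adjusted p = 0.070), both on chromosome 11, were no longer called. Tbrg4 on chromosome 11 (0.33, adjusted p = 0.240) and Nip7 on chromosome 8 (0.27, adjusted p = 0.317) lost their calls too, and other genes were called only there. The number called higher fell without KO1 and without KO2, in this list and among all genes tested. It rose in both without WT1 and without WT2. The fall in this list was steepest without KO1, so the size of its excess over all genes tested depends on the libraries used. The median log2 fold change of the list was 0.30 without WT1, 0.39 without WT2, 0.29 without KO1 and 0.44 without KO2. Ccnd2, a D-type cyclin, rose from 17 and 36 reads to 133 and 224 reads (log2 fold change 2.75, adjusted p = 0.00769). Cad, which starts pyrimidine synthesis, rose from 3026 and 4389 reads to 11095 and 11583 (1.62, adjusted p = 0.00295). Mybbp1a, a nucleolar protein gene on chromosome 11, had a log2 fold change of 1.43, and 0.93 with the chromosome median removed. Tert, the telomerase reverse transcriptase, rose from 385 and 327 reads to 876 and 838 (1.25, adjusted p = 0.01004). The 2 genes that fell, named after their values were seen, were Shmt2, which makes one-carbon units in mitochondria (-1.21, adjusted p = 0.0107), and Hk2, a hexokinase (-0.74, adjusted p = 0.030). With the chromosome medians removed Hk2 was at -0.62 (adjusted p = 0.0646) and was not called.

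Of 12 germ cell genes that MAX, MGA and PRC1.6 are known to repress in mESCs, 0 were higher and 4 were lower (33.3%) by edgeR. By edgeR 11% and 10.7% of all genes tested were called. DESeq2 gave the same counts. At an unadjusted p under 0.05 without a fold threshold there were 0 and 5, and the share of all genes at that cut was not computed. The 4 genes called were not silent in WT1 and WT2, with 530 and 482 CPM for Stag3 and 68.1 and 81.5 for Zcwpw1. Sycp3 had 52.6 and 38.9 CPM there, and Taf7l 22.9 and 65.5. Stag3, a meiotic cohesin subunit, fell from 8097 and 8416 reads to 1625 and 2232 reads (log2 fold change -2.12, adjusted p = 0.0011). Sycp3, of the synaptonemal complex, fell from 803 and 679 reads to 163 and 277 (-1.78, adjusted p = 0.00642), and Zcwpw1, a histone reader of meiotic cells, fell as well (-0.92, adjusted p = 0.0212). Taf7l, a germ cell TFIID subunit on the X chromosome, had 350 and 1145 reads in WT cells and 74 and 214 in KO cells (-2.36, adjusted p = 0.0252). Most genes of the list were lower in WT1 than in WT2 and lower in KO1 than in KO2. Taf7l, for example, had 4.76 and 12.4 CPM in KO1 and KO2. In Stag3 and Sycp3 WT1 was above WT2. With the replicate block 0 genes were higher and 6 were lower, beside 17.2% and 16.5% of all genes tested. The list depended on single libraries as well. Its median log2 fold change was -0.80 with all libraries, -1.33 without WT1 (9 genes lower), 0.0943 without WT2 (4 lower and 2 higher), -0.59 without KO1 (2 lower) and -1.09 without KO2 (3 lower).

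**Figure D4:**
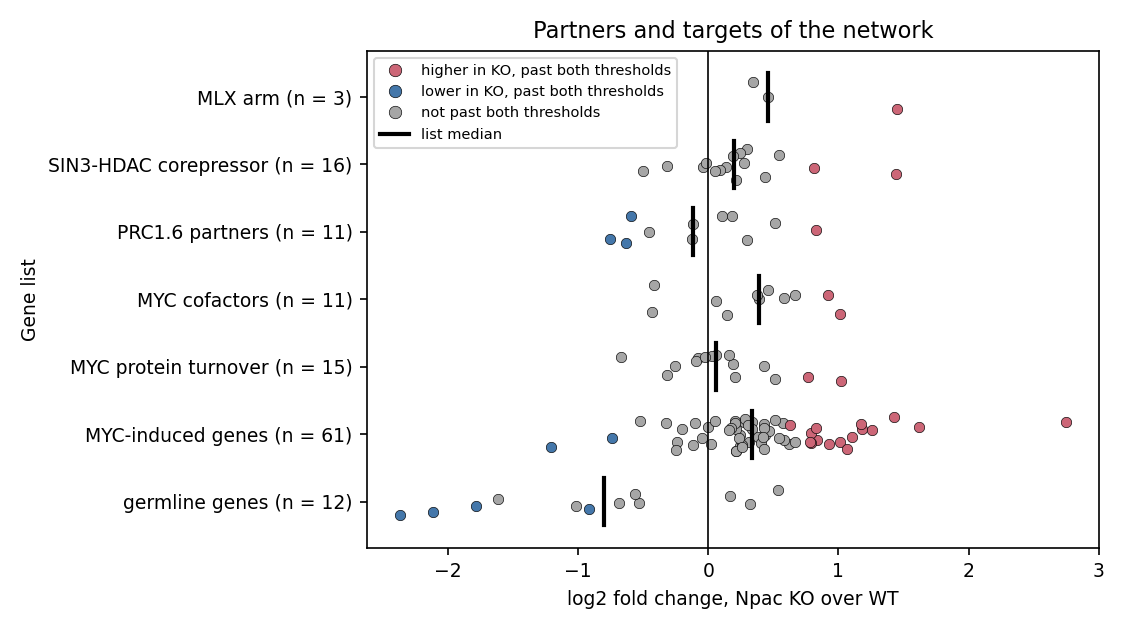
Log2 fold change of Npac KO over WT for each tested gene of the lists around the network, 1 point a gene, coloured where past both thresholds, with a bar at the list median (points are spread vertically for legibility). The MYC-induced genes have 16 points called higher and 2 called lower around a median of 0.34, and the germline genes have 4 called lower around a median of -0.80. The lists were chosen with earlier results of these data known.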

How the data were processed

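RNA-seq of 2 WT and 2 Npac KO libraries of E14 mESCs was analysed. The authors deposited unnormalized counts of reads for each gene and FPKM values, which equal these counts divided by gene length and a scaled library size. Per the labels' processing notes, reads were processed with HISAT2 2.0.5 and featureCounts 1.5.0-p3 on mm10, while the methods name another HISAT release; the strand setting is not given in the sources used here. The files' gene coordinates differ from GRCm38 (GENCODE M21) for all 10 members, with equal spans, so their build is left unnamed, and sequences carry RefSeq's GRCm38.p6 coordinates.

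Counts were tested with edgeR 4.0.16 in R 4.3.3 (TMM, filterByExpr, quasi-likelihood test, Benjamini-Hochberg adjustment over 18157 genes). Standard errors are the log2 fold change divided by the root of F. Totals of 15850805 to 16965120 reads set the counting precision. Alternatives were DESeq2 1.42.0, RLE size factors, no count filter, a replicate block, limma-trend (limma 3.58.1) on log2(FPKM + 0.1) and log2(FPKM + 1), chromosome medians removed, other thresholds and each library left out. Added after seeing the data were sums with processed pseudogenes, found with blastn 2.17.0 (identity of 90% or more, 60% of the pseudogene covered, 4580 matched).

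The members and lists were chosen with earlier results of these data known. Named genes are all members, Glyr1, up to 4 called genes per list by absolute log2 fold change, every gene of lists of up to 4, and the 2 nearest profiles of each MYC gene. Outside this rule, Shmt2, Hk2, Odc1, Npm1, Pes1, Tbrg4, Nip7 and the markers Col1a1, Col1a2 and Thy1 were named after their values were seen. Zfp42, Col3a1 and Prelid1 were named for checks of cell type and overlap.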

Additional observations from a re-analysis of the deposited data

How the results depend on the processing

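Mycn, Mxd1 and Mxi1 kept their direction in every alternative run, and of 120 values of single members under the alternatives 104 kept direction and side of the threshold. The number of genes called higher was 1999 and lower 1946; it was 3128 and 2994 with the replicate block, 3074 and 3090 at an unadjusted p under 0.05, and between 642 and 3477 higher and between 606 and 3311 lower with each library left out, where a lone library is assumed to vary like the other genotype. The cause was not tested, except that fewer libraries enter the fits without one. The replicate numbers are not known to pair the samples: the WT1 - WT2 and KO1 - KO2 differences correlated at 0.332 across genes, and the block changed the call of no member. Members called higher were 2, but 1 on FPKM with either pseudocount and 0 to 3 with a library left out; members called lower were 1, and 0 to 1 with a library left out. Signs turned for members near 0: Max was 0.0771 and Mxd3 0.0225 with chromosome medians removed, and with each library left out Max lay between -0.11 and 0.0413, Mxd3 between -0.16 and 0.052, Mnt between -0.48 and 0.0985 and Mga between -0.43 and 0.69. The summed FPKM of the MYC genes was 1.91-fold higher in KO cells, between 1.58 and 2.23 with a library left out, and that of the MXD genes, Mnt and Mga 1.00, between 0.847 and 1.23. At 62 to 128 reads per library, the depth limits what can be said of Myc.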

Other observations

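Odc1, the rate-limiting enzyme of polyamine synthesis and a gene that MYC proteins are known to raise, was looked at after its values were seen. Odc1 itself had a log2 fold change of 0.27 and was not called. Its 13 matched processed pseudogenes together had 2824 reads in WT1 and 4590 in WT2 but 223 in KO1 and 185 in KO2, and the log2 fold change of Odc1 summed with them was -0.17 (adjusted p = 0.563 by edgeR). Of the members, Mxi1 alone had a matched processed pseudogene, which had no reads, and no member's call changed with the sums.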
